A study of Mus musculus with 48 samples.

Results

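In developing mouse liver, 11755 genomic regions carried the transcription factor HNF4a at embryonic day 15.5 (E15.5) and at none of 4 later stages. Binding was read from deposited ChIP-seq peaks, in which DNA bound by a factor is recovered with an antibody and sequenced. The regions make up 18.4% of the 63925 merged HNF4a regions of all 5 stages and 34.3% of the 34251 that were bound at E15.5. The regions were chosen by the HNF4a peaks themselves: peaks of both replicates of a stage were merged where they overlapped by at least 1 bp and kept if they held a peak of each, the stage regions were then merged across stages, and those holding an E15.5 region and no other were taken. Everything about HNF4a binding, width and stage in these regions is therefore a description. The C/EBPa peaks and the RNA were not used in choosing them.

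The chromatin came from livers of wild-type male F1 mice (C57Bl6/CBA) at E15.5, E18.5 and postnatal days 0.5, 14 and 60 (P0.5, P14, P60), with 2 biological replicates per factor and stage. The labels list 2 HNF4a antibodies for every HNF4a sample and do not say which was used at which stage. RNA came from livers of 3 wild-type (WT) mice, 3 C/EBPa lox/lox / Alfp-Cre mice and 2 HNF4a lox/lox / Alfp-Cre mice of the same F1 strain, in which Cre under the Alfp promoter deletes the loxP-flanked gene in the liver epithelial lineage and leaves it in blood, endothelial and mesenchymal cells. The sample labels give 60 days postnatal as the age of the RNA samples and the series text gives E18.5; the 2 statements differ. The WT libraries held 499143 to 706964 normalized reads of Afp, 303520 to 724668 of H19 and 209589 to 1037369 of the alpha-globin gene Hba-a1. The protocol mentions a standard and a high-fat diet without saying which mice received which. Whole liver was used, so fewer cells of a type and less RNA per cell cannot be told apart.

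HNF4a is a nuclear receptor that binds DNA as a homodimer at direct repeats of a hexamer spaced by a single base, and it is required for hepatocyte differentiation. C/EBPa is a basic leucine zipper factor that drives metabolic genes of the hepatocyte and restrains its proliferation. At E15.5 the liver is also the main site of blood formation, and its hepatoblasts express oncofetal genes such as Afp, H19 and Dlk1 that are silenced after birth.

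Several lists and libraries stood apart. Both deposited HNF4a lists at P0.5 were identical and counted as 1. The E18.5 HNF4a lists shared less with E15.5 than any other stage did: 7777 regions were bound at both E15.5 and E18.5, against 16804 shared with P0.5, 15630 with P14 and 18588 with P60. Of the 18359 E18.5 regions 9860 (53.7%) were bound at that stage alone, at a median of 107868 bp from a transcription start. With the E18.5 stage left out, 11999 regions held HNF4a at E15.5 only, all 11755 above among them. The RNA library of HNF4a knockout replicate 1 held 681038 normalized reads over 12 skeletal muscle genes, against 244 in replicate 2, 101 to 224 in the WT libraries and 128 to 1528 in the C/EBPa knockouts. In WT liver Alb, which encodes albumin of the hepatocyte, had 1491169 to 3098691 normalized reads.

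Sequences are shown for 5 genes whose start window overlapped an E15.5-only region. Afp and Dlk1 were taken as fetal liver genes and Hba-a1 as an erythroid gene. Cwc22 and Mospd1 were taken because their start windows, the single one of each gene in the table, held an HNF4 motif. The Mospd1 start itself (chrX:50723679 on mm9) lay outside its region, chrX:50723719-50724179. The sequences are RefSeq promoter windows of build GRCm38.p6, from 250 bases before to 50 bases after the start. They run 5' to 3' on the gene's strand and were matched by gene symbol. Capitals mark an HNF4, C/EBP, FOXA, HNF1 or GATA motif; other motifs searched stay in lower case.
Afp (chr5:90490464-90490763, plus strand): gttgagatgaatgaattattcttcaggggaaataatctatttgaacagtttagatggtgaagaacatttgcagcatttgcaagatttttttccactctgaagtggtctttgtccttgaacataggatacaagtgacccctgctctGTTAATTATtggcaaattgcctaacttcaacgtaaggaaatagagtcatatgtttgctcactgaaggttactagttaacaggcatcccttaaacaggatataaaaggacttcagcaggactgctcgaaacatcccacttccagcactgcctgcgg
Dlk1 (chr12:109452573-109452872, plus strand): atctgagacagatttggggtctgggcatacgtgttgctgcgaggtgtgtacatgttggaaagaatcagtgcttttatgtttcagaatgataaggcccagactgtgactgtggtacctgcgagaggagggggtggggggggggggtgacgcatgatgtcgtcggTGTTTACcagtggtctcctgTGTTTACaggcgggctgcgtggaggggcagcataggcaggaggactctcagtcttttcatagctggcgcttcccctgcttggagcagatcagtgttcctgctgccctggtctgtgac
Hba-a1 (chr11:32283422-32283721, plus strand): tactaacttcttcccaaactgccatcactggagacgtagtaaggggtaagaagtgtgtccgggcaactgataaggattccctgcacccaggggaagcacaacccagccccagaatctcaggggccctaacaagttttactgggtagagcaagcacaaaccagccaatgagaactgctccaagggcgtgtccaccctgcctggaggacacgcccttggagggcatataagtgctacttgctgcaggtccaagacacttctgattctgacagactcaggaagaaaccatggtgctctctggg
Cwc22 (chr2:77946307-77946606, minus strand): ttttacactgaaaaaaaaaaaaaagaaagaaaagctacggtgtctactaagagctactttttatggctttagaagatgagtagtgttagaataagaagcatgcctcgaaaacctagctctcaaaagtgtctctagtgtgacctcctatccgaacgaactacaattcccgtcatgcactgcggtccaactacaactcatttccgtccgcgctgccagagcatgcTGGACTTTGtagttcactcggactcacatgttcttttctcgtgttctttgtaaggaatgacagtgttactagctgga
Mospd1 (chrX:53370510-53370809, minus strand): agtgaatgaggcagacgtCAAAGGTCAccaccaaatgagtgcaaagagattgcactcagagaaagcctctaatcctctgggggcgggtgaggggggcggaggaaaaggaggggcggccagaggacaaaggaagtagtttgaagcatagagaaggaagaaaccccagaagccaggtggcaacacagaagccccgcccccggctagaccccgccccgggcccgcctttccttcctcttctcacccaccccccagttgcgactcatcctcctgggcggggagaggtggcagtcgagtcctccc
The capitals in Afp, the gene of alpha-fetoprotein, are an HNF1 motif (GTTAATNAT) that begins at position -105 relative to the start. Dlk1, which encodes a Notch-family ligand of hepatoblasts, held 2 FOXA motifs (TGTTTAC) that begin at positions -87 and -67. The HNF4 motif begins at position -27 in Cwc22, a splicing factor gene, and at -232 in Mospd1. The alpha-globin window of Hba-a1 held none of the motifs searched, which says only that these letters are not in it.

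Exact HNF4 motifs were rare in these promoters, as they were over all promoter windows. An E15.5-only region overlapped the start window of 341 genes, and 239 of them, with 238 symbols, were found in the RefSeq table, with 307 windows in all. On either strand, CAAAGTCCA was in 1 of the 307 windows (0.326%), against 16 of 689 windows (2.32%) under regions bound at every stage and 0.475% of all 32851 windows in the table. The variant CAAAGGTCA was in 3 windows (0.977%), against 1.16% and 0.478%, and the direct repeat GGTCANAGG in 5 (1.63%), against 2.03% and 1.72%. The 4 windows with an HNF4 motif belonged to Cwc22, Mospd1, Bpifa3 and Mutyh, genes named here because of that match; Mutyh has 2 windows, and whether the one with the motif is the start under the region was not tested. The C/EBP motif TTGCNNCAA was in 8 windows (2.61%, all windows 2.08%) and the FOXA motif in 11 (3.58%, all windows 3.65%). GATA letters (AGATAA) stood in 11.1% of the E15.5-only windows, 7.55% of the every-stage windows and 11.2% of all windows. The GC box GGGCGG stood in 50.8%, 59.5% and 35.7%. The HNF4 and direct repeat motifs can overlap each other, and a gene with several windows was counted with all of them. Regions away from promoters were not searched.

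Peak widths differed between the HNF4a lists, with medians of 435 and 452 bp at E15.5, 579 and 750 bp at P60 and 1009 bp at P0.5. Every-stage regions are also merged over 5 stages, so a difference in width between classes is not shown to be a trait of the sites. The E15.5-only regions were narrow. Their median width was 474 bp, with 364 bp and 590 bp at the 10th and 90th percentiles, against medians of 1219 bp for the 5758 regions bound at every stage and 731 bp for the 10028 bound at P60 only. Replicate 1 peaks at E15.5 had a median width of 418 bp inside them and 442 bp elsewhere, and replicate 2 peaks 408 bp and 475 bp. Near the limit of the rule, 8520 (72.5%) held no peak in any later HNF4a list, and 3235 held a peak in a single list of a later stage; these were most frequent in P60 replicate 1, with 1324 regions (11.3%), and E18.5 replicate 1, with 822 (6.99%). Just outside it, 14625 E15.5 regions had a peak of replicate 1 alone and 3243 a peak of replicate 2 alone. A further 1747 regions were bound at E15.5 and P0.5 alone, and 2602 at E15.5 and P60 alone. There were 91 regions wider than 1000 bp. They differed from the rest in that 66 of them (72.5%) held a peak in a single later list, against 27.2% of the narrower regions, and 51 (56.0%) held C/EBPa at E15.5, against 6.72%.

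They lay mostly away from promoters. The median distance to the nearest transcription start was 24354 bp, against 16188 bp for every-stage and 21338 bp for P60-only regions. Within 1 kb of a start lay 616 regions (5.24%), against 11.9% of the every-stage and 9.74% of the P60-only regions. Gene bodies held 7024 of them (59.8%), close to the 64.6% and 62.4% of the other classes. Regions bound at every stage were far from them as well, at a median distance of 87752 bp, against 51445 bp for the P60-only regions, and 10.6% had one within 10000 bp, against 21.1%. By chromosome, E15.5-only regions made up between 15.7% (chromosome 4) and 21.6% (chromosome 11) of HNF4a regions on the autosomes, 12.7% on X and 6.58% on Y.

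**Figure D1:**
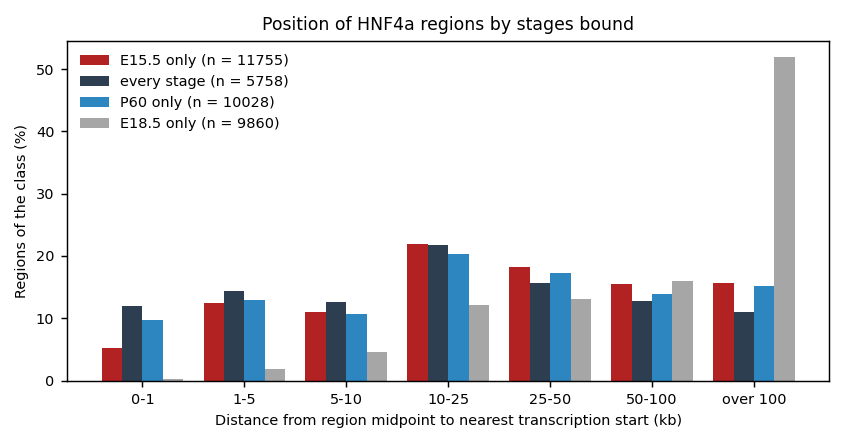
Share of each class of HNF4a regions (vertical axis, %) by distance from the region's midpoint to the nearest transcription start (horizontal axis, kb), with classes given by the stages at which HNF4a was bound. Bars of E15.5-only regions (red) are lower than those of every-stage regions within 1 kb, at 5.24% against 11.9%, and over 100 kb they reach 15.6%, while 51.97% of E18.5-only regions (grey) lie there.

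Part of the E15.5-only regions lay in groups. The 10 genes with 9 or more of them within 50 kb included the imprinted genes Igf2r and Meg3, beside histone and predicted genes. The share in groups was not counted for other classes of HNF4a region. Of the E15.5-only regions, 3053 (26.0%) had another within 10000 bp. The gene with most of them within 50 kb of its start was Igf2r, the imprinted receptor that clears the growth factor IGF2, with 11, and 6 of these formed a run at chr17:12933140-12968019 in which none held C/EBPa at E15.5. Trim71, a stem cell ubiquitin ligase and let-7 target, had 10, of which 9 formed a run of 28378 bp at chr9:114428804-114457181 within its gene body; 8 of these are also within 50 kb of its neighbour Ccr4. Meg3, a maternally expressed long noncoding RNA, had 9 and its imprinted partner Dlk1 had 6, of which 1 is shared. At Dlk1 the regions at chr12:110690831-110691328, over the start, and chr12:110690032-110690496, with its midpoint at -769 bp, held no C/EBPa peak of both replicates at any stage. Gpc3, an oncofetal proteoglycan, had 4 within 50 kb and 7 for which it was the nearest gene, and none of its neighbouring regions was bound at every stage. Across all tested genes the median was 1 such region within 50 kb, 11.5% had 3 or more and 0.0455% had 9 or more. The predicted genes Gm15319 and Gm16982 had 10 each, and the neighbouring histone genes Hist1h1d, Hist1h2bh, Hist1h3f and Hist1h4f had 9 each.

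**Figure D2:**
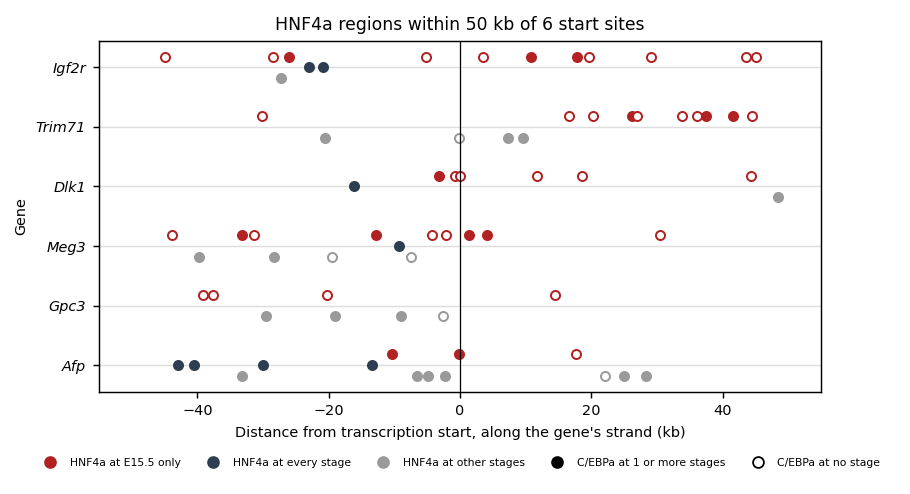
HNF4a regions within 50 kb of the start of 6 genes, placed by the distance of their midpoint from the start (horizontal axis, kb, along the gene's strand). Red circles are E15.5-only regions (11 at Igf2r, 10 at Trim71, 6 at Dlk1, 9 at Meg3, 4 at Gpc3, 3 at Afp), dark circles regions bound at every stage and grey circles other HNF4a regions; filled circles held C/EBPa in both replicates at 1 or more stages.

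A different kind of run held wide regions. At chr17:3006605-3037001, 14 regions of 809 to 2105 bp followed each other, with Scaf8 as the nearest gene, and 13 of them held a peak in a single later list and C/EBPa at E15.5. The 8 regions at chr8:19939212-19988298 by the predicted gene Gm15319 measured 1507 to 12759 bp, the largest width of all, and 7 held C/EBPa at E15.5. At chr7:71218241-71232581, by Trpm1, all 6 did. Input samples were not analysed, so whether these wide runs also stand out in input DNA was not tested. With these runs, Scaf8, Gm15319, Trpm1 and Gm17379 were the genes nearest to most E15.5-only regions with C/EBPa at E15.5, ahead of Trib1, a pseudokinase that targets C/EBPa for degradation, with 4, Gm17279 with 3, and St3gal1, Lss, Nr3c1 and Bmp2k with 2 each.

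C/EBPa, whose lists the rule did not use, was found in few of these regions at E15.5, in more at E18.5 and P0.5 and again in few at P14 and P60. In the E15.5 lists 10.6% and 8.82% of the E15.5-only regions held a C/EBPa peak. The shares were 36.8% and 26.7% at E18.5, 30.5% and 33.4% at P0.5, 9.57% and 11.1% at P14, and 7.96% and 15.2% at P60. The E18.5 and P0.5 shares lie above all others, and the P14 and P60 shares overlap those at E15.5. List length moves with these values: the E15.5 C/EBPa lists hold 13434 and 16900 peaks, the E18.5 and P0.5 lists 70171 to 121624, and the P14 and P60 lists 40636 to 89407.

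Counted as regions with a peak in both C/EBPa replicates, 835 (7.10%) had C/EBPa at E15.5, 2927 (24.9%) at E18.5, 3214 (27.3%) at P0.5, 954 (8.12%) at P14 and 742 (6.31%) at P60. Regions bound by HNF4a at every stage had it in 29.0%, 77.8%, 83.3%, 66.6% and 66.8%. Most E15.5-only regions, 6385 (54.3%), had no peak in any of the 10 C/EBPa lists. C/EBPa at E15.5, E18.5 or P0.5 but not at P14 or P60 was found in 2603 regions (22.1%), and the opposite order in 77 (0.655%). The earlier order takes in more stages, and the lists differ in length. These shares, the share without any peak and the later-stage shares that follow were not counted for other HNF4a regions. None is shown to be particular to this class. C/EBPa at all 5 stages was found in 289 (2.46%) of the E15.5-only and 1611 (28.0%) of the every-stage regions. Of the 835 regions with C/EBPa at E15.5, 726 (87.0%) had it at E18.5, 742 (88.9%) at P0.5, 468 (56.1%) at P14 and 342 (41.0%) at P60; 67 had it at E15.5 and no later stage. The region over the Afp start, chr5:90919344-90919940, held C/EBPa at E15.5, E18.5 and P0.5 and not at P14 or P60. A pair of regions in Cps1, the rate-limiting enzyme of the urea cycle, differed: chr1:67172043-67172394 held C/EBPa at all 5 stages and chr1:67170269-67170758 from E18.5 on.

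To compare lists of unequal length, the share in E15.5-only regions was divided by the share in all other HNF4a regions of the same list. The ratio was 0.647 and 0.664 at E15.5, 0.743 and 0.615 at E18.5, 0.611 and 0.642 at P0.5, 0.235 and 0.262 at P14, and 0.184 and 0.272 at P60. The mean log2 ratio was -0.61 in the 2 E15.5 lists and -1.35 in the 8 later lists. The difference of 0.74 did not pass (2-sided exact permutation test, p = 0.267, where the smallest p for 2 against 8 lists is 0.0444). The test took the replicate lists of a stage as separate units, and E15.5 is a single stage, so it cannot judge a difference between stages. The E15.5, E18.5 and P0.5 lists did not overlap the P14 and P60 lists. For that split, which was chosen after the values were seen and is given with no test, the means were -0.62 and -2.09, with a difference of 1.47. The other regions in the ratio include those bound at P14 and P60, a set that the rule shaped. They also include the 9860 E18.5-only regions, of which at most 1.17% held C/EBPa in any list. Counting only peaks over the midpoint gave log2 ratios of -0.27 and -0.17 at E15.5 and a difference of 1.02 (exact permutation p = 0.0889). Against the other regions bound at E15.5, the log2 ratios were -1.46 and -1.45 at E15.5 and -1.29 to -0.99 at E18.5 and P0.5. The level at E15.5 beside E18.5 and P0.5 thus depended on the reference. Within single lists, the share of C/EBPa peaks in HNF4a regions that lay in E15.5-only regions was 10.6% to 12.7% from E15.5 to P0.5 and 3.61% to 5.27% at P14 and P60.

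**Figure D3:**
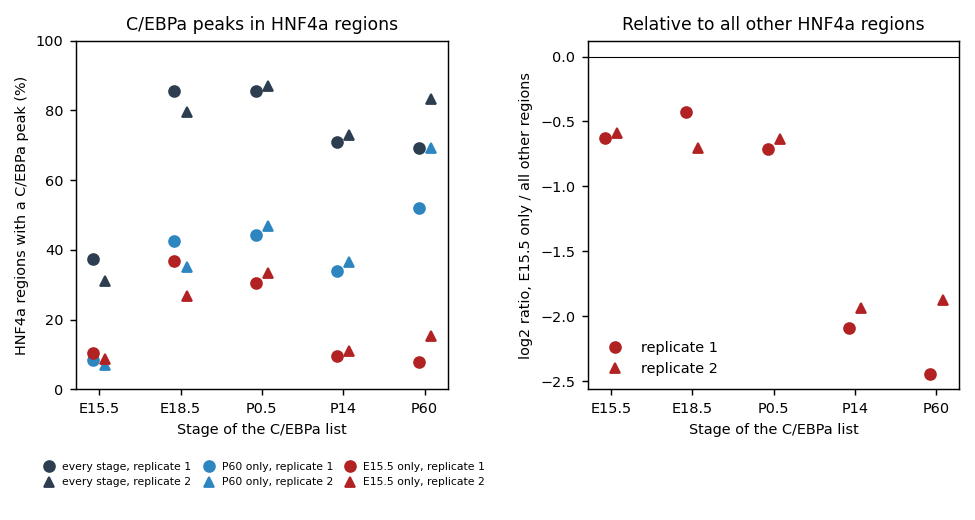
Left: share of HNF4a regions that held a C/EBPa peak (vertical axis, %) in each C/EBPa list (horizontal axis, stage; circles replicate 1, triangles replicate 2) for regions bound by HNF4a at every stage, at P60 only and at E15.5 only. Right: log2 ratio of the share in E15.5-only regions to that in all other HNF4a regions, which lies between -0.71 and -0.43 up to P0.5 and between -2.44 and -1.88 at P14 and P60.

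In each band of distance from a gene start the share with C/EBPa was highest at P0.5. Within 1 kb of a start 4.87% of the E15.5-only regions had C/EBPa at E15.5 and 35.6% at P0.5, and beyond 50 kb 8.73% and 28.0%. Every-stage regions had 22.04% and 84.4% within 1 kb, and 32.3% and 84.8% beyond 50 kb.

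Gene lists were described by the share of their genes with an E15.5-only region within 50 kb of the start, which was 55.1% over all tested genes, beside the same for every-stage regions, 39.6%. The lists were drawn up with earlier results of these data known and are no independent evidence. All 18 fetal liver genes had one, 8 of 18 had 3 or more, and 12 of 18 had an every-stage region. That list includes Ahsg, Alb, Ttr and Fgb, and Alb, Ttr and Fgb are also in the plasma protein list. Ahsg, Alb, Ttr and Fgb each had 12 to 16 HNF4a regions of other classes within 50 kb. None of them was the nearest gene of an E15.5-only region. Of the whole list 13 of 18 were, beside 34.6% of all tested genes. With peaks at or above the median width of their list, 9 of 18 had an E15.5-only region within 50 kb, beside 34.7% of all tested genes. With lists of equal length 7 of 18 did, beside 22.8%. The regions of those settings overlapped only 20.55% and 18.51% of the E15.5-only regions described here. Cell cycle genes (21 of 28, against 12 with an every-stage region) and growth factor and developmental signalling genes (22 of 37, against 12) had the same order as all tested genes, and the share of the signalling list was near the background. The order was the opposite for adult hepatocyte metabolism, with 13 of 32 against 28, for plasma proteins, with 11 of 24 against 22, and for hepatocyte transcription factors, with 17 of 27 against 21. Among markers of other liver cells there were 8 of 23 erythroid genes (against 7 with an every-stage region), 7 of 20 of haematopoietic progenitors and white cells (against 4), 6 of 11 macrophage (against 1) and 7 of 12 endothelial genes (against 5). Stellate and mesenchymal genes had 6 of 15 (against 2), bile duct genes 5 of 12 (against 2), and actin, adhesion and junction genes 17 of 26 (against 13). Neighbours such as Dlk1 and Meg3, Igf2 and H19, or Alb and Afp can share regions.

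**Figure D4:**
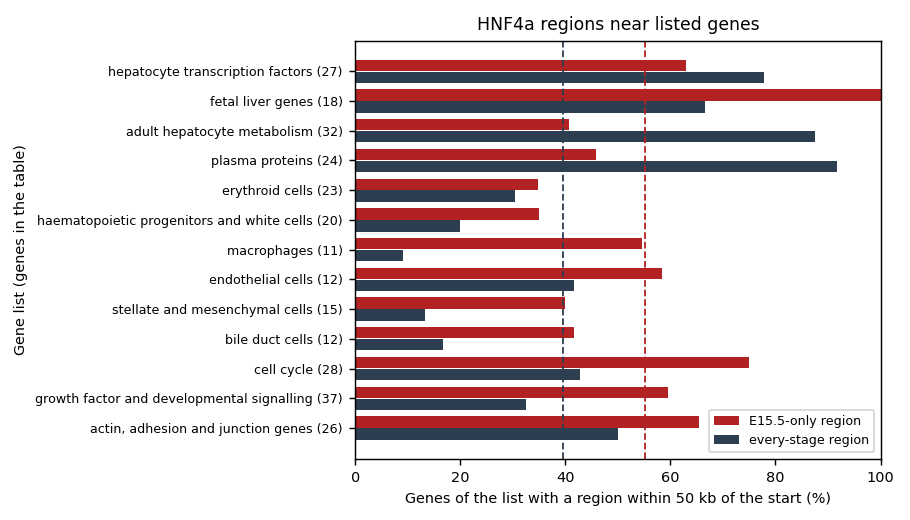
Share of the genes of each list (horizontal axis, %; number of genes in brackets) with an E15.5-only region (red) or an every-stage region (dark) within 50 kb of the start. Dashed lines mark the shares over all tested genes, 55.1% (red) and 39.6% (dark); fetal liver genes reach 100.0% for E15.5-only regions, and plasma proteins and adult metabolism genes have the longest dark bars.

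RNA was compared between knockout and WT livers with limma on log2(value + 1), and log2 changes are on that scale. The first check was the deleted genes. Cebpa had 9999, 9594 and 5511 normalized reads in WT and 322, 419 and 998 in the C/EBPa knockouts, a log2 change of -3.98 ± 0.44 (SE, adjusted p = 0.000413), with no overlap of groups. Hnf4a had 9098, 4948 and 6718 in WT and 1238 and 2444 in the HNF4a knockouts, -1.95 ± 0.45 (adjusted p = 0.033); without WT replicate 1, WT replicate 3 or HNF4a knockout replicate 1 this did not pass, with an adjusted p of up to 0.44. Over all 15379 protein-coding and lincRNA genes tested, 3.21% were lower and 0.975% higher in the C/EBPa knockout, and 3.59% lower and 1.66% higher in the HNF4a knockout. Genes with an every-stage region within 10 kb of the start were lower far more often, 219 of 2369 (9.24%) in the C/EBPa and 280 (11.8%) in the HNF4a knockout, with median log2 changes of -0.25 and -0.38.

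Genes whose only HNF4a regions were of the E15.5-only class, within 10 kb of the start and with no other HNF4a region within 50 kb, numbered 361, of which 233 passed the filter on low values. In each knockout 1 of the 233 was lower (0.429%) and 7 were higher (3.00%), beside backgrounds of 3.21% and 0.975% in the C/EBPa and 3.59% and 1.66% in the HNF4a knockout. Their median log2 changes were 0.17 and 0.01, against 0.01 and -0.03 over all genes tested. Their median WT level was 185.3 normalized reads, against 303.3 over all genes tested. The filter asked for at least 10 normalized reads in any 2 libraries, so a gene could pass through a knockout alone. Ush1c and Slc7a9 passed only through the C/EBPa knockout libraries, and Kcnip1 only with the HNF4a knockout libraries. Such genes could be called higher in that knockout and not lower. Genes with no HNF4a region within 50 kb had 5 lower and 12 higher of 1213 in the C/EBPa knockout, and 5 lower and 19 higher in the HNF4a knockout. The 2 contrasts share their WT libraries. With equal library totals the median of all genes moved by 0.508 in the C/EBPa contrast. The share of lower among all calls went from 76.7% to 40.2%. Genes of the E15.5-only class then had 0 lower and 14 higher.

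In the C/EBPa knockout the higher genes among them were Ush1c, S100b, Slc7a9, Timp1, Mycn, Lypd6 and Hmga2. Ush1c, a scaffold protein of the brush border, had 4, 3 and 3 normalized reads in WT and 59, 81 and 148 in the knockouts, a log2 change of 4.39 ± 0.68 (adjusted p = 0.00379). S100b, a calcium-binding protein, had 3, 2 and 12 in WT and 76, 154 and 144 in the knockouts (4.48 ± 0.74, adjusted p = 0.00562). Both groups were separate in each gene, and both calls held without any single library. Slc7a9, a transporter of cystine and basic amino acids, had 0, 0 and 5 in WT and 61, 66 and 50 in the knockouts (5.04 ± 0.92, adjusted p = 0.0102), and its adjusted p rose to at most 0.0571 without a library. Its start lay under an E15.5-only region at chr7:36233478-36234376, 1 of 4 within 50 kb, none of which held C/EBPa at any stage. Mycn, a growth-promoting factor of the MYC family, had 57, 53 and 76 in WT and 461, 217 and 285 in the knockouts (2.30 ± 0.50, adjusted p = 0.0271). Hmga2, a fetal chromatin protein, had 61, 112 and 150 in WT and 801, 527 and 224 in the knockouts (2.16 ± 0.51, adjusted p = 0.0378). These groups did not overlap either, but the Mycn call was lost in 4 and the Hmga2 call in 6 of the 8 fits that left out 1 library, with adjusted p of up to 0.125 and 0.198. Dram1, a lysosomal membrane protein that promotes autophagy, was the lower gene, with 281, 268 and 195 in WT and 79, 81 and 55 in the knockouts (-1.78 ± 0.39, adjusted p = 0.0268), and did not pass without WT replicate 1, WT replicate 2 or C/EBPa knockout replicate 1. Without a library the count of higher genes fell to 2 (WT replicate 1), 4 (WT replicate 2), 3 (C/EBPa knockout replicate 1) or 4 (C/EBPa knockout replicate 2).

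In the HNF4a knockout the higher genes were Col1a1, Kcnip1, Zfp423, Timp1, Gpc1, Slit3 and Serpinh1, and the lower was Npr3, a clearance receptor for natriuretic peptides. Col1a1, a collagen of stellate cells and fibroblasts, had 1980, 2291 and 2294 in WT, and 19659 and 11721 in the knockouts (2.80 ± 0.40, adjusted p = 0.00242). Timp1, a metalloproteinase inhibitor, had 8, 21 and 24 in WT, 176 and 259 in the HNF4a knockouts (3.65 ± 0.76, adjusted p = 0.0201) and 120, 97 and 544 in the C/EBPa knockouts (3.45 ± 0.68, adjusted p = 0.0164). Serpinh1, the collagen chaperone HSP47, had 1479, 1039 and 1791 in WT, and 5508 and 4098 in the knockouts (1.76 ± 0.43, adjusted p = 0.0414). Npr3 had 261, 216 and 256 in WT, and 72 and 83 in the knockouts (-1.64 ± 0.40, adjusted p = 0.0408), and 11 E15.5-only regions had it as nearest gene. In all 8 genes both knockout libraries lay outside the WT range. The Npr3 and Serpinh1 calls were each lost in 6 of the 8 fits without 1 library, with adjusted p of up to 0.34 and 0.396, and the Timp1 call in 3, with up to 0.124. Without HNF4a knockout replicate 1, the library with muscle RNA, 0 of 231 tested genes of the class passed by limma, and 3 were lower and 16 higher at an unadjusted p below 0.05; the remaining knockout library is then assumed to vary like the other groups. Without C/EBPa knockout replicate 3, which enters through the shared spread, 13 were higher, and without WT replicate 1, 2 were. Of the stellate and mesenchymal marker list 4 of 15 genes were higher, beside 1.66% of all tested genes. The list summed to 14415 to 21617 normalized reads in WT, and to 105294 and 44051 in the HNF4a knockouts. The part of these cells and of muscle RNA in the result was not tested.

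**Figure D5:**
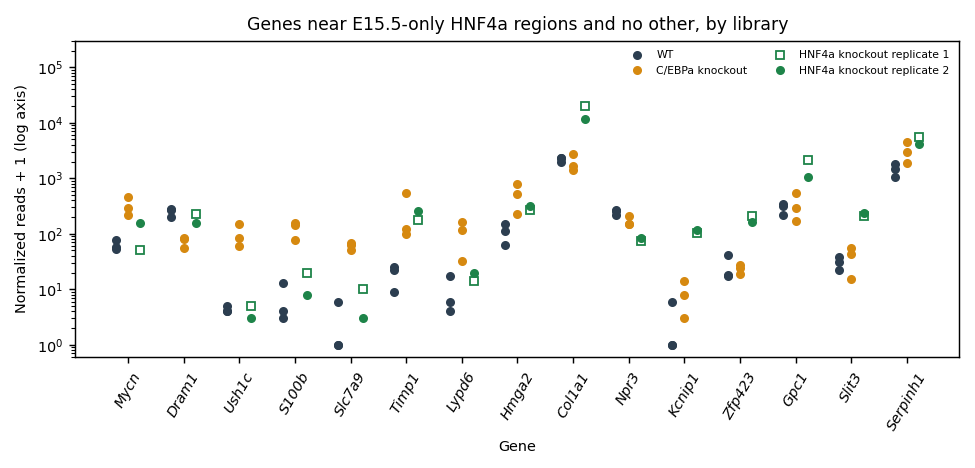
Normalized reads + 1 (vertical axis, log scale) in each library for the 15 genes near E15.5-only regions and no other HNF4a region that passed the test in either contrast. The first 8 genes passed in the C/EBPa knockout (Timp1 in both) and the others in the HNF4a knockout; open squares are HNF4a knockout replicate 1. For Ush1c, S100b and Slc7a9 the 3 C/EBPa knockout libraries lie above all others.

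An E15.5-only region lay within 1 kb of the start of 789 genes, of which 646 were tested. In the C/EBPa knockout 9 were lower (1.39%, all genes 3.21%) and 16 higher (2.48%, all genes 0.975%). In the HNF4a knockout 16 were lower (2.48%, all genes 3.59%) and 11 higher (1.70%), a share near the 1.66% of all genes. Both totals depend on single libraries: the 25 genes of the C/EBPa contrast became 8 without WT replicate 1, and the 27 of the HNF4a contrast became 3 without HNF4a knockout replicate 1, 9 without WT replicate 1 and 56 without C/EBPa knockout replicate 3. Where that region held C/EBPa at 1 or more stages, 4 of 272 tested genes were lower and 4 higher in the C/EBPa knockout; where it held none, 5 of 374 were lower and 12 higher. By WT level the leading promoter genes were Afp, Hba-a2, Hba-a1, Rplp1, Cps1, A2m, Fetub, Rps9, Cat and Mt1. Cps1 had 42271, 35402 and 52397 in WT and 185, 87 and 625 in the C/EBPa knockouts (-7.62 ± 0.59, adjusted p = 4.54e-05). A2m, a plasma protease inhibitor, had 18576, 31005 and 46563 in WT, and 2942, 522 and 5049 in the C/EBPa knockouts (-3.92 ± 0.71, adjusted p = 0.00955), and 883 and 1258 in the HNF4a knockouts (-4.83 ± 0.79, adjusted p = 0.00522). Fetub, a secreted fetuin, fell by 6.67 on the log2 scale in the C/EBPa knockout (adjusted p = 0.00531). These 3 genes have every-stage regions as well: 2 within 50 kb of Cps1, 1 of A2m and 5 of Fetub.

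Afp did not pass in either contrast, with 625821, 499143 and 706964 in WT, 381833, 97621 and 349858 in the C/EBPa knockouts and 227430 and 305323 in the HNF4a knockouts; both knockout groups lay below the WT range (-1.36 ± 1.09, adjusted p = 0.665, and -1.20 ± 1.22, adjusted p = 0.606). Hba-a1 and Hba-a2 are near-identical copies between which reads may be split, and their ranges overlapped between WT and C/EBPa knockouts. Hba-a1 had 209589 to 1037369 in WT, and 1697967 and 989753 in the HNF4a knockouts, where the erythroid list summed to 7004185 and 4106651 against 1075160 to 4020579 in WT.

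Of the 18 fetal liver genes, 1 was lower and 1 higher in the C/EBPa knockout, beside 3.21% lower and 0.975% higher over all tested genes. In the HNF4a knockout 0 passed by limma, beside 3.59% lower and 1.66% higher over all tested genes. There 1 was lower and 2 higher at an unadjusted p below 0.05. With 18 genes these counts cannot be told apart from the shares over all genes. The higher in the C/EBPa knockout was Hmga2. The lower was Fgb, the fibrinogen beta chain, which is named for that call, with 91836, 84373 and 115140 in WT and 7716, 6820 and 15185 in the knockouts (-3.37 ± 0.52, adjusted p = 0.00358). Dlk1 had 4553, 6236 and 3248 in WT, 25481, 5962 and 30672 in the C/EBPa knockouts (1.89 ± 0.61, adjusted p = 0.144), and 21139 and 36836 in the HNF4a knockouts (2.63 ± 0.68, adjusted p = 0.0528). Meg3 was higher in the C/EBPa knockout, with 6854, 9346 and 8537 in WT and 34113, 54550 and 52299 in the knockouts (2.49 ± 0.42, adjusted p = 0.00672); without WT replicate 1 the adjusted p was 0.0741. Trim71 was higher as well, at 2, 0 and 3 in WT and 22, 85 and 24 in the knockouts (4.00 ± 0.89, adjusted p = 0.0305), and did not pass in 4 of the 8 fits without 1 library. Igf2r, with 2629, 1727 and 2468 in WT and 4911, 1062 and 2983 in the C/EBPa knockouts, did not pass (0.16 ± 0.51, adjusted p = 0.94). HNF4a regions of other classes within 50 kb numbered 14 at Fgb, 2 at Dlk1, 5 at Meg3, 4 at Trim71, 3 at Igf2r and 0 at Hmga2.

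Among the lists, all 5 cell cycle genes that passed in the C/EBPa knockout were higher, beside 0.975% of all tested genes. All 5 had an E15.5-only region within 50 kb, as did 21 of the 28 tested. Ccnd1, the G1 cyclin, had such a region over its start at chr7:152125457-152126006, with 856, 744 and 786 normalized reads in WT and 3618, 3191 and 2069 in the knockouts (1.86 ± 0.32, adjusted p = 0.00785). Ccne1, which drives entry into S phase, had 718, 671 and 529 in WT and 1422, 1527 and 1309 in the knockouts (1.16 ± 0.28, adjusted p = 0.0472), and did not pass in 7 of the 8 fits without 1 library. Bmp7, a secreted growth factor with 4 E15.5-only regions within 50 kb, had 21, 13 and 21 in WT, 227, 392 and 123 in the C/EBPa knockouts (3.56 ± 0.49, adjusted p = 0.00188) and 315 and 360 in the HNF4a knockouts (4.16 ± 0.55, adjusted p = 0.00156), and held in every fit without 1 library. Cldn2, a pore-forming claudin of the tight junction, had 68, 42 and 106 in WT and 657, 509 and 577 in the C/EBPa knockouts (3.09 ± 0.42, adjusted p = 0.00167), with 4 such regions within 50 kb. HNF4a regions of other classes lay within 50 kb as well: 2 each at Ccnd1 and Ccne1, and 5 each at Bmp7 and Cldn2.

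Other listed genes with these regions were lower. HNF4a regions of other classes lay within 50 kb of them too: 6 at Gjb2, 13 at Cdh1 and 5 at Foxa1. Of these, 1 at Gjb2 and 1 at Cdh1 were bound at every stage. Gjb2, connexin 26 of hepatocyte gap junctions, had 1398, 776 and 735 in WT, 217, 135 and 228 in the C/EBPa knockouts (-2.29 ± 0.38, adjusted p = 0.00619) and 96 and 72 in the HNF4a knockouts (-3.46 ± 0.43, adjusted p = 0.00113); without WT replicate 1 the C/EBPa call was lost, with an adjusted p of 0.0559. Cdh1, E-cadherin, had 1957, 2374 and 1593 in WT, and 333 and 376 in the HNF4a knockouts (-2.46 ± 0.37, adjusted p = 0.00334), with an adjusted p of 0.0578 without HNF4a knockout replicate 1. Foxa1, a pioneer factor with 5 E15.5-only regions within 50 kb and none bound at every stage, had 124, 97 and 82 in WT and 10, 2 and 22 in the C/EBPa knockouts (-3.46 ± 0.69, adjusted p = 0.0177); without WT replicate 1 or WT replicate 2 it did not pass, with an adjusted p of up to 0.103. Of the 12 tested adult metabolism genes with an E15.5-only region within 50 kb, 10 were lower in the C/EBPa and 7 in the HNF4a knockout. Of all 31 tested genes of that list 21 and 18 were lower, and of all tested genes 3.21% and 3.59%.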

How the data were processed

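The peaks were deposited by the authors as 1 list of intervals per sample on build mm9; BWA, MACS 1.4 and bedtools are named in the submitters' processing notes, without settings. The deposited score column of the peak lists is 0 in every row, so no peak height or p-value was used. Input and polymerase samples were not analysed here.

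RNA values were deposited by the authors as DESeq-normalized reads, rounded to whole numbers, so they were treated as a score and not as raw counts; TopHat2, Cufflinks and DESeq are named in the submitters' processing notes, and counting, annotation version and strand are not given in the sources used here. Depth before scaling is unknown. Library totals were 13448347 to 25992243 normalized reads. Positions were taken from the deposited gene table, whose GC fraction, also deposited there, was not used in any test.

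Regions were built and counted with Python 3.11.15, pandas 2.3.3 and numpy 2.4.6, with an overlap of at least 1 bp, and plotted with matplotlib 3.10.9. A C/EBPa peak counts where it overlaps a region by at least 1 bp, per list or in both replicates of a stage. Distances run from region midpoints to the 5' end of genes, and windows of 1, 10 and 50 kb count any overlap; runs are regions at most 10000 bp apart. Protein-coding and lincRNA genes were used (24426, chosen after the tables were seen). RNA was tested with limma 3.58.1 in R 4.3.3 (trend, log2(value + 1), all 8 libraries in 1 fit), on 17771 genes of every biotype with at least 10 normalized reads in 2 or more libraries, with Benjamini-Hochberg adjustment and a threshold of 0.05. The fit was tested on simulated data. The labels call the ChIP replicates biological and do not tie RNA libraries to litters; p-values measure the spread between these samples.

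Genes were named by rules: the 10 promoter genes highest in WT, called genes of the E15.5-only class, the 10 genes with most regions within 50 kb, the 10 widest regions, up to 5 genes per list, up to 10 genes nearest to regions with C/EBPa at E15.5, and Hnf4a and Cebpa. The regions, rules and lists were chosen with earlier results of these data known, and the 12 muscle genes after the values were seen. Alternatives changed the overlap, thresholds, lists, pseudocount, filter, scaling, block and libraries.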

Additional observations from a re-analysis of the deposited data

How the results depend on the processing

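The number and identity of the E15.5-only regions depended on which peaks were taken by width. There were 5146 with peaks at or above the median width of each list and 2977 with lists of equal length by width. They overlapped 2416 (20.55%) and 2176 (18.51%) of the 11755 regions above, so most of those were no longer in the class. The fetal liver genes with such a region within 50 kb then numbered 9 and 7 of 18, beside 34.7% and 22.8% of all tested genes. Leaving out 1 HNF4a list at a time gave 10459 to 21185 regions, the highest without E15.5 replicate 2, and 17 to 18 genes. The difference in C/EBPa log2 ratio between E15.5 and later lists ranged from 0.588 to 0.876 without a list. It was 1.47 for the split into 6 earlier and 4 later lists, chosen after seeing the data and because they did not overlap, so no test is given, and 0.354 (exact permutation p = 0.667) with the other regions bound at E15.5 as reference.

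The calls in the C/EBPa contrast, 643 in all, ranged from 306 to 781 without a library, those of E15.5-only genes from 0 to 1 lower and 2 to 8 higher, and those of promoter genes from 8 to 26. In the HNF4a contrast 808 calls became 233 to 1291, with 0 to 2 lower and 0 to 13 higher E15.5-only genes and 3 to 56 promoter genes. With equal library totals, E15.5-only genes had 0 lower and 14 higher and promoter genes 45 calls in the C/EBPa contrast, and 0 E15.5-only genes were lower in the HNF4a contrast. Fitting only the groups compared gave 1381 calls in the HNF4a contrast, with 2 lower and 13 higher E15.5-only genes and 51 promoter genes. Lower E15.5-only genes in that contrast numbered 2 with a pseudocount of 0.5 and 0 with no filter. A window of 25 kb gave 2 lower in the C/EBPa and 12 higher in the HNF4a contrast, of 430 tested genes in place of 233. The cause was not tested. No named gene reversed its direction with a call.

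With the replicate number as a block, calls fell to 492 and 478 in the C/EBPa and HNF4a contrasts, with 0 and 0 lower E15.5-only genes and 16 and 10 promoter genes. The correlations of same-numbered libraries ranged from -0.231 to 0.19. With so few libraries per group they cannot tell whether same-numbered libraries share a litter or batch, which the labels do not state.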
